A study of Homo sapiens with 12 samples.

Results

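The comparison described here is the change over time in HK-2 cultures that received no drug: 3 control arrays at 48 h against 3 control arrays at 12 h, which are 6 of the 12 arrays in the series. HK-2 is 1 immortalized human line from the epithelium of the proximal tubule, the segment of the kidney whose cells reabsorb most of the filtered salt, glucose and amino acids. The arrays were chosen by their labels alone, as the samples called control at each time, and every named gene above the background filter was tested. The other 6 arrays come from cultures given CsA, read here as cyclosporin A, for 12 h or 48 h, and they serve only to ask where the control change differs from the change with the drug.

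Cells were plated 24 h before the exposure began and were at about 90% confluence at that point. Both control groups received the vehicle in place of CsA, but neither the vehicle nor the dose of CsA is named in the labels. All cultures grew in a defined mixture of DMEM and Ham's F12 with 5 mM glucose, 10 ng/ml EGF, hydrocortisone, insulin, transferrin and selenite. The labels do not say whether the medium was renewed between 12 h and 48 h, nor how many cells were present at either time. Culture age, cell density, medium age and length of vehicle exposure all run with time, and their parts in a difference between 12 h and 48 h cannot be told apart. The labels call the 3 replicates of a group biological without naming separate passages or days, so the p-values measure the spread between these samples.

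Epithelial cells that fill a dish commonly leave the cell cycle. The genes for DNA replication are driven by E2F transcription factors, and those for mitosis are switched through the MuvB complex, whose repressive form, DREAM, binds a short promoter element called CHR. A separate set of programs responds to strain on protein synthesis. The sensors PERK, IRE1 and ATF6 watch protein folding in the endoplasmic reticulum (ER), and PERK, together with the amino acid sensor GCN2, slows translation and favours synthesis of the transcription factor ATF4, which induces amino acid transporters, tRNA synthetases and the factor CHOP, encoded by DDIT3.

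Between 42.3% and 42.7% of all probe sets exceeded 4 in log2 units on the control arrays, and medians of the hybridization controls ran from 10.6 to 11.3. Replicate 1 at 48 h stood apart from the other control arrays in 2 technical measures. Its spiked-in poly-A controls had a median log2 of 4.32, against 8.80 to 9.26 on the other 5, and its ACTB 5' probe set lay 1.33 below the 3' probe set on the log2 scale, where a signed difference of -0.98 to -0.83 was seen elsewhere. The part of these differences in the results was not tested, but the counts are also given without this array. Among the CsA arrays, which enter the shared estimate of spread, replicate 3 at 48 h also stood apart. Results that rest on it are given without it too. The median SD of a gene was 0.10 between the 12 h controls and 0.15 between the 48 h controls, in log2 units.

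The change was broad. Among 11154 genes tested, 2746 were higher at 48 h (24.6%) and 2331 were lower (20.9%) at an adjusted p under 0.05, in a model of all 12 arrays that pools their variance. Fitted by themselves, the 6 control arrays gave 2816 genes higher (25.2%) and 2479 lower (22.2%), and 4770 genes (42.8%) passed in both fits. Without replicate 1 at 48 h the counts were 2513 higher and 2129 lower, and without replicate 3 of CsA at 48 h they were 3168 and 2751. Every gene list below has to be read against these shares, because a list that behaved like the whole array would already hold many called genes. Of the 5077 genes called in either direction, 1985 differed by less than 1.5-fold. Differences above 2-fold were found for 692 genes that rose and 697 that fell, and differences above 4-fold for 125 and 204. The median log2 change of all genes was 0.03. The 3 arrays of one time lay wholly outside the range of the other for 6714 genes (60.2%), of which 3545 were higher at 48 h and 3169 lower.

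**Figure D1:**
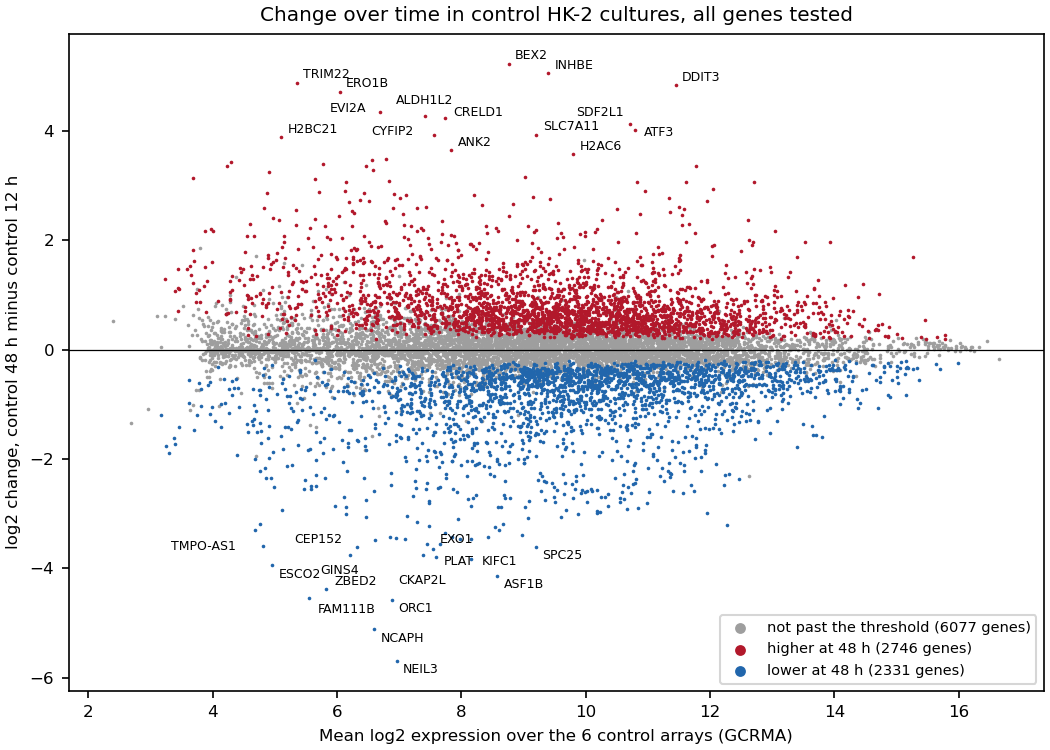
Each point is 1 of 11154 genes, plotted by its mean log2 level over the 6 control arrays (horizontal) and its log2 change from 12 h to 48 h (vertical). The 2746 genes that rose are red, the 2331 that fell are blue, and the 15 with the largest change in each direction by the naming rule are labelled; DDIT3 is the farthest right among the labelled rises, at high levels on the array.

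The comparison was proposed with 5 marker genes, DDIT3, INHBE and ERO1B as rising and NEIL3 and ORC1 as falling, and these stand among the largest changes. They were chosen with earlier results of these data known, so that standing is not independent evidence. DDIT3, which encodes the stress transcription factor CHOP, read 9.04, 9.04 and 8.99 in log2 at 12 h and 13.80, 13.40 and 14.41 at 48 h, in the order of replicates 1 to 3. Every 48 h array lay more than 4 log2 units above every 12 h array. The log2 change was 4.84 ± 0.26 (SE, 3 arrays per time), or 28.7-fold, with an adjusted p of 9.66e-07 from the fit of all arrays and 7.63e-05 from the control arrays alone.

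INHBE encodes the activin beta E subunit, a secreted ligand of the TGF-beta family. Its log2 values were 6.04, 7.57 and 6.99 at 12 h and 11.86, 11.92 and 12.01 at 48 h. The 12 h arrays were spread over more than 1 log2 unit, while the 48 h arrays lay close together, and the groups did not overlap. The log2 change was 5.06 ± 0.30 (SE), 33.4-fold, with an adjusted p of 1.64e-06. ERO1B, an oxidase that helps form disulfide bonds in the ER, read 4.05, 3.70 and 3.31 at 12 h and 8.66, 8.19 and 8.38 at 48 h. It went from about the background level to a clear signal, so that its log2 change of 4.72 ± 0.28 (SE, adjusted p = 1.66e-06) starts from a poorly measured base; its other probe set changed by 3.61.

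NEIL3, a DNA glycosylase that acts in replicating cells, had log2 values of 9.85, 9.76 and 9.80 at 12 h and 4.61, 4.00 and 3.72 at 48 h. The 3 later arrays lay at about the background level, so the size of the fall is uncertain. The log2 change was -5.70 ± 0.78 (SE), with an adjusted p of 0.000216 over all arrays and 4.04e-05 in the control arrays alone. ORC1, the largest subunit of the complex that marks replication origins, read 9.11, 9.10 and 9.28 at 12 h and 5.31, 4.86 and 3.60 at 48 h. The 12 h arrays were nearly identical and the 48 h arrays spread by more than 1 log2 unit, all well below them. Its log2 change was -4.57 ± 0.48 (SE), also uncertain in size because replicate 3 at 48 h was near background, with an adjusted p of 4.06e-05.

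Of the 15 largest rises, BEX2 led with 6.79, 6.38 and 5.27 at 12 h and 11.36, 11.36 and 11.43 at 48 h, a log2 change of 5.23 ± 0.49 (SE, adjusted p = 2.16e-05). The others, with log2 changes from 3.58 to 4.89 outside the markers, are described here by what each gene encodes. SDF2L1 and CRELD1 encode ER proteins and rose by 4.13 and 4.23. ATF3, a transcription factor of the stress response, rose by 4.02, and its 2 other probe sets changed by 1.48 and 4.14. SLC7A11, the cystine and glutamate exchanger, rose by 3.94, and ALDH1L2, a mitochondrial enzyme of folate metabolism, by 4.27. CYFIP2, a subunit of the WAVE actin regulator, and ANK2, a membrane scaffold, rose by 3.94 and 3.65; the second probe set of ANK2 changed by 1.20. The 12 h arrays of CYFIP2 were spread over more than 4 log2 units. EVI2A rose by 4.35.

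Some of these rises begin near background, meaning that all 3 arrays of that time lay under a log2 of 4, and their fold changes are uncertain. TRIM22, an interferon-inducible ubiquitin ligase, read 2.70, 3.12 and 2.90 at 12 h and 7.47, 8.01 and 7.89 at 48 h. The histone gene H2BC21 read 2.94, 3.54 and 3.00 at 12 h and 4.91, 9.12 and 7.10 at 48 h. Its 48 h arrays differ from each other by more than 4 log2 units, and its call (adjusted p = 0.0133) was lost when replicate 2 at 48 h was left out. The other histone gene among the 15, H2AC6, read 7.99, 8.53 and 7.51 at 12 h and 11.30, 11.98 and 11.48 at 48 h, a log2 change of 3.58 ± 0.35 (SE, adjusted p = 2.76e-05).

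Among the 15 largest falls, NCAPH, a subunit of the condensin that compacts mitotic chromosomes, read 9.09, 9.04 and 9.34 at 12 h and 4.21, 3.79 and 4.13 at 48 h, a log2 change of -5.11 ± 0.72 (SE, adjusted p = 0.000249) that ends at about the background level. ASF1B, a histone chaperone, changed by -4.13 and the motor protein gene KIFC1 by -3.82. GINS4, part of the replicative helicase, changed by -3.77, with its other probe set at -1.94. EXO1, an exonuclease of DNA repair, changed by -3.65, CKAP2L, a spindle protein, by -3.75, and SPC25, part of the kinetochore, by -3.61. CEP152, needed for centriole duplication, changed by -3.61, but its second probe set by -0.19, so the 2 probe sets of that gene disagree.

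The remaining large falls were FAM111B at -4.54, ZBED2 at -4.38, ESCO2 at -3.95, PLAT at -3.79 and the long non-coding RNA TMPO-AS1 at -3.59. ESCO2, the cohesin acetyltransferase, and TMPO-AS1 were near background on all 48 h arrays. PLAT, which encodes tissue plasminogen activator, is the one gene of extracellular proteolysis among the 15. It read 9.59, 9.38 and 9.48 at 12 h and 5.67, 5.47 and 5.94 at 48 h, with narrow spread at both times and an adjusted p of 1.45e-06. The naming rule required all 30 genes to pass in the fit of the control arrays alone too. With the replicate number added to that fit as a block, which the rule did not require, all 30 passed.

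**Figure D2:**
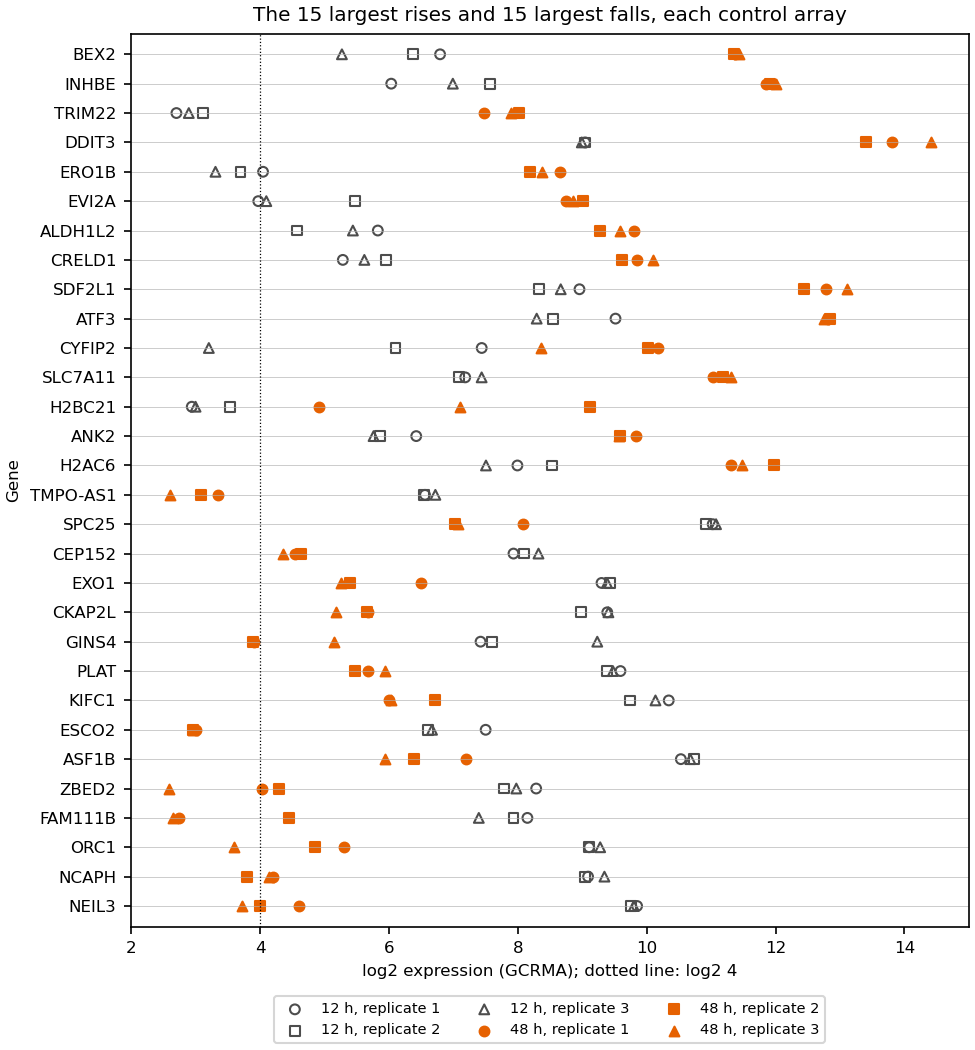
Log2 expression of the 15 genes with the largest rise and the 15 with the largest fall on each of the 6 control arrays; open grey symbols are 12 h, filled orange symbols 48 h, the shape gives the replicate, and the dotted line marks a log2 of 4. The times do not overlap for any of these genes, which the naming rule required; CYFIP2 at 12 h and H2BC21 at 48 h have the widest spread.

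The machinery of DNA replication fell almost as a whole. Of 43 genes tested, 41 fell, none rose, and the median log2 change was -1.55, against 0.03 for all genes and a background of 20.9% lower. The 2 that did not pass were ORC5 and RFC5, with log2 changes of -0.05 and 0.13; 2 other probe sets of RFC5 changed by -2.13 and -1.79. In the mean over the list of replication genes, the 12 h arrays read 10.75, 10.73 and 10.78 and the 48 h arrays 9.35, 9.02 and 8.98. Replicate 1 at 48 h was the highest of the later arrays and still lay more than 1 log2 unit below every 12 h array; without it 41 genes fell and the median was -1.69. In a bulk culture, fewer cells in a phase of the cycle and less RNA per cell cannot be told apart.

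CLSPN, the adaptor of the replication checkpoint, read 6.47, 6.43 and 6.07 at 12 h and 3.05, 3.02 and 2.99 at 48 h, near background at the later time. MCM4 and MCM6 encode subunits of the replicative helicase. MCM6 read 12.45, 12.38 and 12.35 at 12 h and 11.06, 10.69 and 10.62 at 48 h, a log2 change of -1.60 ± 0.11 (SE, adjusted p = 2.76e-06). MCM4 changed by -1.67 and FEN1, the flap endonuclease of lagging-strand synthesis, by -2.17. PCNA, the sliding clamp of the polymerases, remained among the brightest genes of the list. It read 14.51, 14.48 and 14.48 at 12 h and 13.17, 12.85 and 12.76 at 48 h, a log2 change of -1.57 ± 0.16 (SE, adjusted p = 3.3e-05).

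Of 8 enzymes that supply deoxynucleotides, 7 fell and 1 rose, with a median of -1.34. RRM2, the small subunit of ribonucleotide reductase made in S phase, read 13.91, 13.95 and 13.78 at 12 h and 11.20, 10.62 and 10.21 at 48 h, a log2 change of -3.20 ± 0.40 (SE, adjusted p = 0.000113). RRM2B, the p53-inducible small subunit, read 8.79, 8.90 and 8.44 at 12 h and 9.81, 9.83 and 9.76 at 48 h, a log2 change of 1.09 ± 0.15 (SE, adjusted p = 0.0002). The 2 isoforms therefore changed in opposite directions, and for each of them the arrays of the 2 times did not overlap. Thymidine kinase TK1 changed by -2.64, thymidylate synthase TYMS by -1.40 and deoxycytidine kinase DCK by -1.15.

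Of 18 genes of the G1/S cyclins and the E2F circuit, 11 fell and 1 rose, with a median of -1.56. Cyclin D1, CCND1, which couples growth factor signals to the cycle, read 10.91, 10.83 and 10.71 at 12 h and 8.93, 7.66 and 8.18 at 48 h, a log2 change of -2.56 ± 0.26 (SE, adjusted p = 2.89e-05). CCND3, cyclin D3, changed by -1.60, the E cyclins CCNE1 and CCNE2 by -2.08 and -2.98, and their partner CDK2 by -2.26. CDK4, the kinase partner of the D cyclins, was the 1 gene that rose, by 0.41 (adjusted p = 0.00216). RB1, RBL2, E2F2, E2F3, CCND2 and CDK6 did not pass, with log2 changes of -0.03, -0.01, -0.51, -0.29, 0.04 and -0.02.

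Of 6 genes for inhibitors of cyclin-dependent kinases, 3 rose and 1 fell, with a median of 0.27 that was 0.44 without replicate 2 at 12 h. CDKN1A, which encodes p21, read 11.95, 11.78 and 11.44 at 12 h and 13.48, 13.79 and 13.64 at 48 h, a log2 change of 1.92 ± 0.24 (SE, adjusted p = 0.000134). CDKN2B, which encodes p15, rose by 1.02 and CDKN2D, which encodes p19, changed by -1.46. CDKN1C passed narrowly (log2 change 0.70, adjusted p = 0.0479), with overlapping arrays, and its call was lost without any single control array but replicate 2 at 12 h. The count lower was 2 without replicate 1 at 12 h or replicate 3 at 48 h. CDKN1B, which encodes p27, the inhibitor often linked to contact-inhibited growth and controlled largely at the level of the protein, did not pass. It read 11.69, 12.33 and 12.16 at 12 h and 11.87, 11.92 and 11.78 at 48 h, a log2 change of -0.20 ± 0.16 (SE, adjusted p = 0.319), and the groups overlapped.

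Mitosis and cytokinesis gave the lowest median of any list, -2.48. Of 46 genes tested, 45 fell and none rose, against a background of 20.9% lower; CDC25B, a phosphatase that activates mitotic kinases, was the 1 that did not pass, with a log2 change of -0.31. The list mean was 11.52, 11.65 and 11.66 on the 12 h arrays and 9.47, 9.01 and 9.04 on the 48 h arrays. The later arrays lay about 2 log2 units below the earlier ones, with replicate 1 again the highest; without it 44 fell, with a median of -2.62.

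MKI67, the source of the Ki-67 proliferation marker, read 11.35, 11.46 and 11.34 at 12 h and 8.99, 8.16 and 7.97 at 48 h. Its log2 change was -3.01 ± 0.59 (SE, adjusted p = 0.00192), and its 3 other probe sets changed by -4.01 to -3.11. TOP2A, the topoisomerase that untangles chromosomes, read 13.34, 13.44 and 13.39 at 12 h and 11.63, 10.77 and 10.87 at 48 h, a log2 change of -2.30 ± 0.40 (SE, adjusted p = 0.000938). The 48 h level of TOP2A was still far above background, so its transcript was reduced but present. SPC24, the kinetochore partner of SPC25, changed by -3.19, the centromeric histone CENPA by -2.11, the checkpoint gene MAD2L1 by -2.10 and the cytokinesis factor ECT2 by -1.96.

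Promoter sequence was compared for the members that passed, using the 250 bases before the start of each gene in RefSeq annotation of GRCh38.p14. A promoter was found for 38 of the 45 mitotic genes that fell and for 34 of the 41 replication genes. The CHR letters TTTGAA, searched on both strands, occurred in 22 of the 38 mitotic promoters (57.9%). They occurred in none of the 34 replication promoters, in 8.14% of the 9213 promoters of tested genes, and in 13.6% of all 27305 promoters. The E2F letters TTTGGCGC or TTTCGCGC occurred in 5 of the 34 replication promoters (14.7%) and in 1 of the 38 mitotic promoters (2.63%), against 1.69% for tested genes and 0.996% overall. The forward and reverse forms of the E2F letters overlap where they meet, and such a pair counts once per promoter. These shares are descriptions of letters in a fixed window, with no test. Of the 28 CHR matches in the 22 promoters, 18 began within 100 bases of the start.

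The following stretches show the CHR letters in mitotic promoters, in capitals and read 5′ to 3′ on the strand of the gene. MKI67, CENPA and ECT2 are named by rule; PLK1, the polo-like kinase that starts mitosis, BUB1B, CDCA8 and CCNB2 were chosen after their values were seen, for matches close to the start.
MKI67: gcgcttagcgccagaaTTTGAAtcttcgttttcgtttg
CENPA: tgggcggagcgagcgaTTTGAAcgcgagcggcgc
ECT2: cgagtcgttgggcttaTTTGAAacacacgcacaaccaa
PLK1: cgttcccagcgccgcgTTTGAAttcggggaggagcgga
BUB1B: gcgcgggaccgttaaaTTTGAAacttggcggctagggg
CDCA8: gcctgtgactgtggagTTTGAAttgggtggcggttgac
CCNB2: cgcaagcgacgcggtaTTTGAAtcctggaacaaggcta

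The MKI67 stretch lies at chr10:128126449-128126486 on the minus strand, and a second TTTGAA follows it 18 bases nearer the start. CENPA lies at chr2:26786022-26786055, ECT2 at chr3:172750595-172750632, PLK1 at chr16:23678844-23678881, BUB1B at chr15:40161030-40161067, CDCA8 at chr1:37692477-37692514 and CCNB2 at chr15:59105101-59105138, all on the plus strand. Log2 changes of the 22 genes with the letters ran from -3.61 to -1.58, with a median of -2.52, close to that of the whole list. PLK1, BUB1B, CDCA8 and CCNB2 changed by -2.71, -2.48, -2.96 and -1.58.

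For the replication genes, the helicase subunit MCM6 and the polymerase subunits POLA2 and POLE show the E2F letters, in capitals as they read on the strand of the gene. POLA2 and POLE were chosen after their values were seen.
MCM6: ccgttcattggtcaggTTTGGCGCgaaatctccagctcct
POLA2: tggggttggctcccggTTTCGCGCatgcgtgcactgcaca
POLE: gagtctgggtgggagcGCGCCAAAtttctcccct
The MCM6 stretch lies at chr2:135876510-135876549 on the minus strand, POLA2 at chr11:65261893-65261932 on the plus strand and POLE, which carries the reverse form, at chr12:132687343-132687376 on the minus strand. POLA2 changed by -2.32, with its other probe set at -0.93, and POLE by -1.47 on the log2 scale. The promoter of MCM6 holds the letters in 2 places, each time in both orientations and overlapping.

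Genes of recombination, Fanconi and excision repair were also mostly lower. Of 25 tested, 19 fell and 1 rose, with a median of -1.51. BRCA1, which directs repair of double-strand breaks, read 9.44, 9.66 and 9.60 at 12 h and 7.82, 7.34 and 7.56 at 48 h, a log2 change of -1.99 ± 0.17 (SE, adjusted p = 1.06e-05). RAD54B changed by -1.87, and FANCM and FANCG of the Fanconi pathway by -2.56 and -1.76. ATM, the kinase that signals double-strand breaks, was the 1 that rose, by 0.44 (adjusted p = 0.00244), while its 2 other probe sets changed by -0.02 and 0.27. With the replicate block in the control arrays, 2 rose and 21 fell.

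Targets of p53, a list that includes p21, were mostly higher. Of 22 tested, 19 rose and 1 fell, with a median of 0.89, against a background of 24.6% higher. ZMAT3, an RNA-binding protein, read 9.29, 9.07 and 8.84 at 12 h and 11.27, 11.67 and 11.39 at 48 h, a log2 change of 2.38 ± 0.23 (SE, adjusted p = 2.44e-05). MDM2, the ubiquitin ligase that restrains p53, rose by 1.47, PHLDA3, an inhibitor of AKT, by 1.45, and SESN1, a sestrin, by 1.29. TP53I3 was the 1 that fell, by 0.55 on the log2 scale (adjusted p = 0.0106). FAS and PLK2 did not pass, with log2 changes of 0.56 and -0.19.

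Only 6 of 18 listed replication-dependent histone genes passed the background filter with a single gene name. Of these 3 rose and none fell, but without replicate 2 at 48 h 1 rose and 1 fell. Mature mRNAs of these genes usually lack a poly-A tail, and the priming used is given in the labels only as the standard protocol for cRNA, so their levels on these arrays are a partial view.

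Genes of the response that follows ATF4 and CHOP were mostly higher at 48 h. Of 35 genes tested, 30 rose and 2 fell, with a median log2 change of 1.97, against a background of 24.6% higher. The list mean was 9.11, 9.13 and 9.08 on the 12 h arrays and 11.07, 11.06 and 11.18 on the 48 h arrays. Both times were tight, with about 2 log2 units between them, and without replicate 1 at 48 h 30 rose with a median of 2.01. ATF4 itself read 12.53, 12.52 and 12.71 at 12 h and 13.85, 13.97 and 13.94 at 48 h, a log2 change of 1.33 ± 0.10 (SE, adjusted p = 5.29e-06).

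Among its targets, SLC3A2, the heavy chain shared by several amino acid exchangers, read 10.17, 10.04 and 9.99 at 12 h and 13.09, 12.96 and 13.38 at 48 h. Its log2 change of 3.07 ± 0.12 (SE, adjusted p = 2.12e-07) accompanied the rise of SLC7A11, the light chain it pairs with to take up cystine. CEBPG, a partner of ATF4 on DNA, rose by 2.09. GDF15, a secreted stress hormone, read 10.33, 10.15 and 9.79 at 12 h and 13.46, 13.63 and 13.28 at 48 h, a log2 change of 3.37 ± 0.18 (SE, adjusted p = 1.27e-06).

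The 2 list members that fell were CHAC2, a glutathione-degrading enzyme, at -1.71 (adjusted p = 8.09e-06) and ATF5, a stress transcription factor, at -1.08 (adjusted p = 7.35e-05). The other probe sets of ATF5 ranged from -0.99 to 0.00, so its fall is not shared by all of them. PSAT1, DDIT4 and ADM2 did not pass, with log2 changes of 0.22, 0.43 and -0.05. The CARE letters TGATGCAA, a composite site for ATF4 and a C/EBP partner, were found on either strand in 1 of 23 promoters of the members that rose (4.35%), against 0.380% for tested genes and 0.820% overall. That promoter belongs to CHAC1, the stress-induced relative of CHAC2, named for this match after its values were seen; its log2 change was 3.50.
CHAC1: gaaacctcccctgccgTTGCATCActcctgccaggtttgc
The stretch lies at chr15:40953246-40953285 on the plus strand, and the capitals are the reverse form of the letters.

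ER chaperones and genes of ER-associated degradation, which discards misfolded proteins, rose in 27 of 30 cases, with none lower and a median of 1.47. The list mean was 10.72, 10.65 and 10.75 on the 12 h arrays and 12.44, 12.30 and 12.69 on the 48 h arrays, more than 1 log2 unit apart. HSPA5, which encodes the chaperone BiP, was already bright at 12 h, with 14.45, 14.18 and 14.59, and averaged 16.10 ± 0.09 (SD, n = 3) at 48 h, with every later array above every earlier one. Its log2 change was 1.70 ± 0.14 (SE, adjusted p = 8.78e-06), while its second, dimmer probe set changed by 4.43, so the size of the rise depends on the probe set.

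HERPUD1, a membrane protein of the degradation complex, read 11.12, 11.14 and 11.26 at 12 h and 14.24, 14.13 and 14.34 at 48 h, a log2 change of 3.06 ± 0.14 (SE, adjusted p = 5.06e-07). DNAJB9, a co-chaperone of BiP, rose by 2.90 and SEL1L, a subunit of the same degradation complex, by 2.61. The members that did not pass were CALR, ERO1A and SEC61B, with log2 changes of 0.70, 0.13 and 0.06.

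Of 12 ER stress sensors and their factors, 6 rose and 2 fell, with a median of 0.33. ERN1, which encodes IRE1, read 6.26, 6.21 and 5.89 at 12 h and 8.63, 8.82 and 8.73 at 48 h, a log2 change of 2.61 ± 0.19 (SE, adjusted p = 4.72e-06). ATF6 rose by 1.33 and EIF2AK3, which encodes PERK, by 0.78. XBP1, whose mRNA IRE1 splices, rose by 1.76 on the probe set used, while the other changed by 0.12; splicing was not measured. The falls, of EIF2S1 and EIF2AK4 at -0.35 and -0.36, were small, and 2 other probe sets of EIF2S1 changed by 0.10 and 0.13. These calls were lost without several of the control arrays: the count lower was 1 without any one of the 12 h replicates and 0 without replicate 2 or 3 at 48 h.

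Cytosolic aminoacyl-tRNA synthetases, which load amino acids on tRNA, rose in 11 of 15 cases, with 1 lower and a median of 0.93. AARS1, for alanine, read 10.27, 10.29 and 10.40 at 12 h and 12.65, 12.77 and 12.95 at 48 h, a log2 change of 2.47 ± 0.12 (SE, adjusted p = 6.98e-07). CARS1, SARS1 and IARS1, for cysteine, serine and isoleucine, rose by 1.73, 1.71 and 1.20. HARS1, for histidine, was the 1 that fell, with a log2 change of -0.51 (adjusted p = 0.00155), and KARS1, RARS1 and VARS1 did not pass, with log2 changes of 0.18, -0.04 and 0.17.

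**Figure D3:**
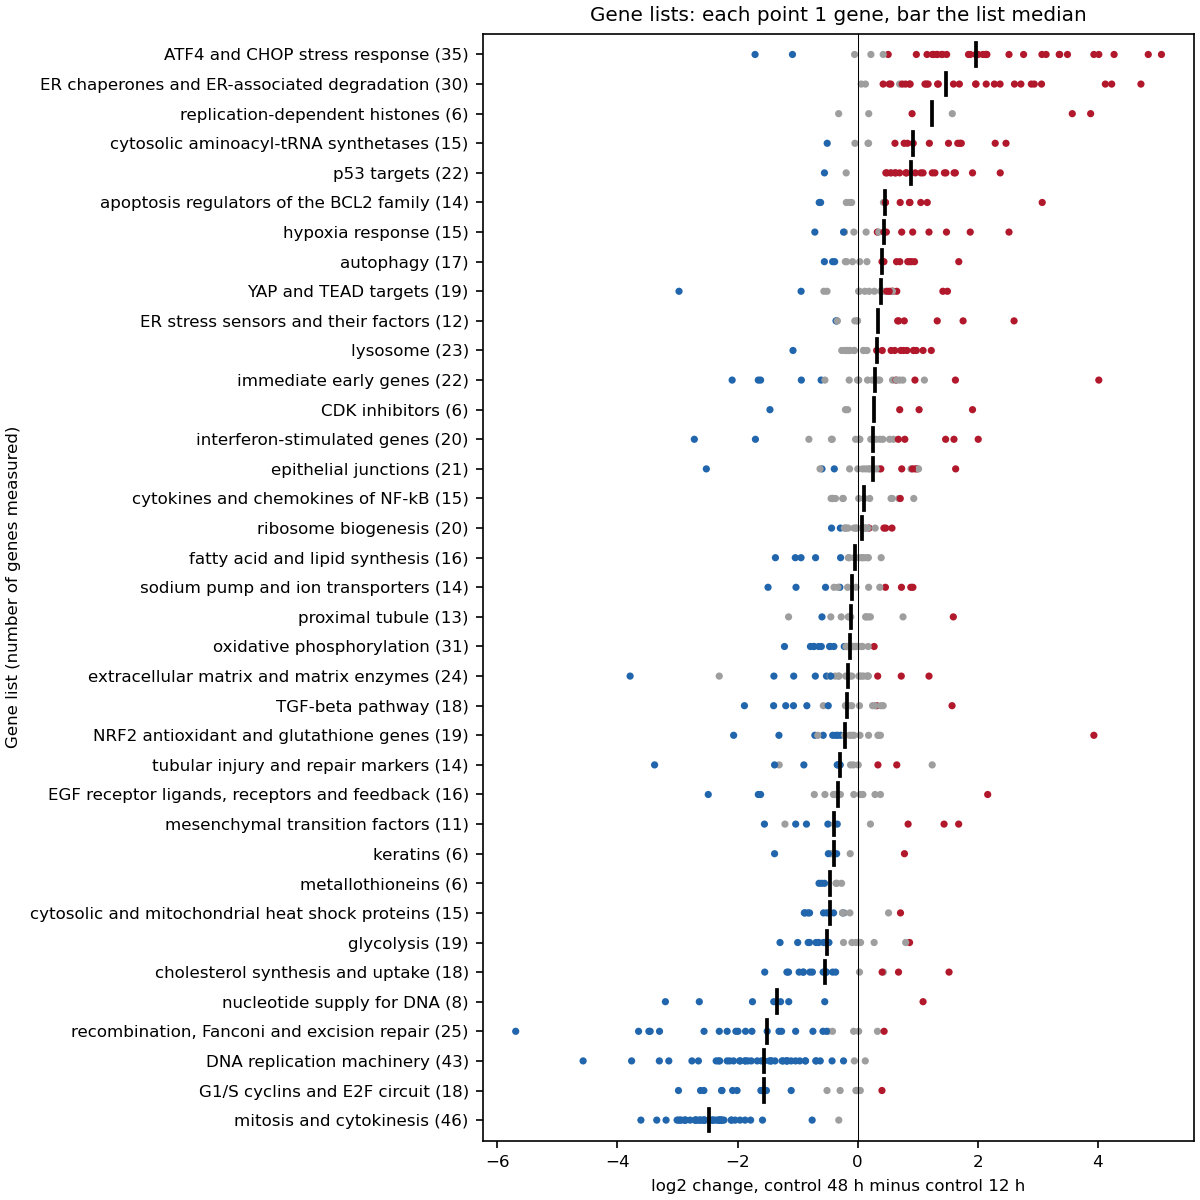
Log2 change from 12 h to 48 h for the genes of each list with at least 6 genes tested; each point is 1 gene (red rose, blue fell, grey did not pass), the black bar is the list median, and the number of genes is in brackets. Medians run from -2.48 for mitosis and cytokinesis to 1.97 for the ATF4 and CHOP response, and every other list drawn has its median between them.

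Lists of metabolic genes had medians nearer to that of all genes. Of 18 genes of cholesterol synthesis and uptake, 13 fell and 3 rose, with a median of -0.55. EBP, a sterol isomerase, read 13.12, 13.14 and 13.21 at 12 h and 11.96, 12.03 and 12.02 at 48 h, a log2 change of -1.15 ± 0.08 (SE, adjusted p = 4.39e-06). FDPS changed by -0.97, SQLE by -0.90 and HMGCS1, which makes the precursor of mevalonate, by -0.91. STARD4, a carrier of cholesterol between membranes, rose by 1.52 (adjusted p = 2.76e-05), and PMVK, a kinase of the pathway, by 0.68. SREBF2, the transcription factor of the pathway, did not pass, with a log2 change of 0.03.

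Of 16 genes of fatty acid and lipid synthesis, 5 fell and none rose in the fit of all arrays, with a median of -0.05, close to that of all genes. With the replicate block in the control arrays, 1 rose. The members that fell include FASN, the fatty acid synthase, at -1.37 ± 0.19 (SE, adjusted p = 0.000235). The elongase ELOVL6 changed by -1.04, the acetate-activating enzyme ACSS2 by -0.94 and the citrate lyase ACLY by -0.70. SREBF1, ACACA and SCD did not pass, with log2 changes of 0.18, 0.07 and 0.09.

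Of 19 glycolysis genes, 10 fell and 1 rose, with a median of -0.50. The list mean was 12.24, 12.24 and 12.25 on the 12 h arrays and 11.94, 11.89 and 11.89 on the 48 h arrays. The arrays of each time agree to within 0.1, so a shift of about 0.3 separates them. PKM, pyruvate kinase, changed by -0.998, with its other probe set at -0.39. LDHA, lactate dehydrogenase, changed by -0.82, the hexokinase HK1 by -0.80 and PGK1 by -0.69. The 1 rise, of the glucose transporter SLC2A1 (log2 change 0.87, adjusted p = 0.0344), was lost without replicate 2 or 3 at 12 h and without replicate 1 or 3 at 48 h; the control arrays alone called 2 higher.

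Of 15 genes of the hypoxia response, 9 rose and 2 fell, with a median of 0.44. VEGFA, the endothelial growth factor, read 10.22, 10.26 and 9.79 at 12 h and 12.72, 12.52 and 12.60 at 48 h, a log2 change of 2.52 ± 0.20 (SE, adjusted p = 6.79e-06). The vasodilator peptide gene ADM rose by 1.88, NDRG1 by 1.48 and BNIP3L, a receptor for removal of mitochondria, by 0.73. VEGFA and NDRG1 are also known as genes induced by ER stress, and what raised them here was not tested. The count lower was 1 without replicate 2 at 12 h and 0 without any other single control array. HIF1A, BNIP3, P4HA2 and HILPDA did not pass, with log2 changes of -0.22, 0.14, 0.35 and -0.06.

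Of 31 genes of oxidative phosphorylation, 10 fell and 1 rose, with a median of -0.12. ATP5MC1, a subunit of the ATP synthase rotor, changed by -1.22 ± 0.12 (SE, adjusted p = 3.46e-05), while ATP5MC3 changed by -0.73, NDUFA2 by -0.79 and SDHA by -0.73. The 1 rise was lost without any single control array but replicate 3 at 48 h. Of 20 genes of ribosome biogenesis, 4 rose and 2 fell, with a median of 0.07 and log2 changes from -0.43 to 0.57. POLR1B, a subunit of RNA polymerase I, rose by 0.57 and RRN3, its initiation factor, by 0.47.

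Cytosolic and mitochondrial heat shock proteins were mostly lower. Of 15 tested, 10 fell and 1 rose, with a median of -0.47. HSP90AA1 read 15.65, 15.54 and 15.49 at 12 h and 14.81, 14.68 and 14.71 at 48 h, a log2 change of -0.83 ± 0.08 (SE, adjusted p = 3.04e-05). HSPH1 changed by -0.80, the co-chaperone BAG3 by -0.88 and DNAJA1 by -0.47. HSPA9, the HSP70 of mitochondria, was the 1 that rose, by 0.71 (adjusted p = 7.35e-05); the control arrays alone called 2 higher. A difference in change between this list and the ER chaperones was not tested.

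Of 23 lysosomal genes, 12 rose and 1 fell, with a median of 0.32. HEXA, a hexosaminidase, read 11.46, 11.45 and 11.34 at 12 h and 12.34, 12.44 and 12.28 at 48 h, a log2 change of 0.94 ± 0.08 (SE, adjusted p = 1.23e-05). The ceramidase ASAH1 rose by 0.98, the sialidase NEU1 by 0.93 and the calcium channel MCOLN1 by 0.82. GLA, the alpha-galactosidase, fell by 1.08 on the log2 scale (adjusted p = 7.27e-05); the count lower was 2 without replicate 1 at 48 h and with the replicate block in the control arrays.

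Of 17 autophagy genes, 9 rose and 3 fell, with a median of 0.41. WIPI1, which binds the lipid of forming autophagosomes, read 9.54, 9.46 and 9.56 at 12 h and 11.36, 10.95 and 11.31 at 48 h, a log2 change of 1.69 ± 0.14 (SE, adjusted p = 8.49e-06). MAP1LC3B, which encodes the autophagosome protein LC3B, rose by 0.90, ULK1 by 0.95 and the cargo receptor NBR1 by 0.70. Of the falls, ATG4A changed by -0.55, and the count lower was 1 without replicate 1 at 12 h or replicate 2 at 48 h.

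**Figure D4:**
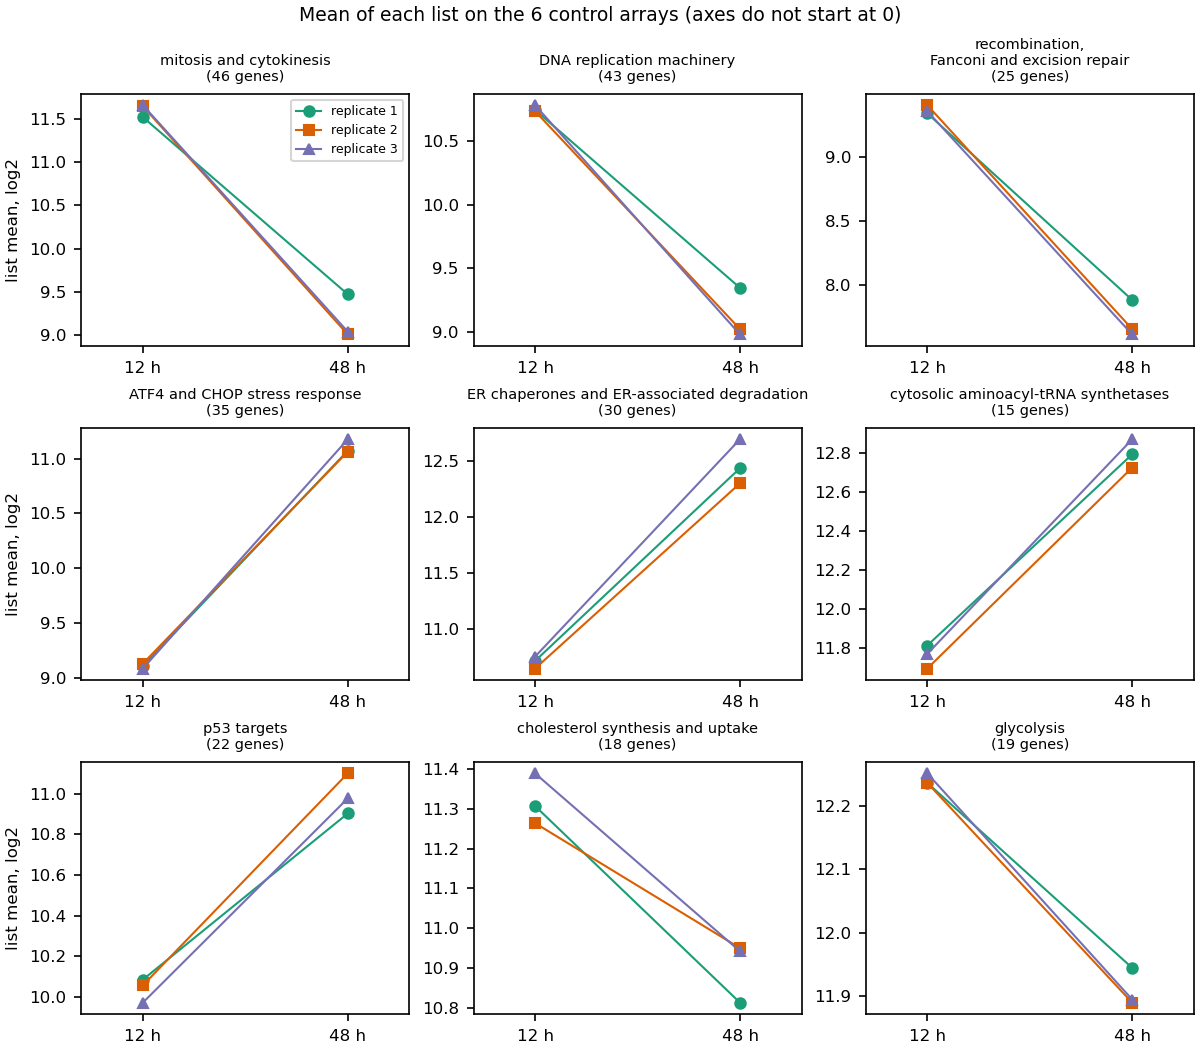
Mean log2 level of 9 gene lists on each control array, with a line joining arrays of the same replicate number from 12 h to 48 h; the vertical axes differ and do not start at 0. In the lists for mitosis, DNA replication and repair, replicate 1 at 48 h lies above the other 2 later arrays; in the other lists it lies among or below them, except for glycolysis.

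Growth factor signalling was represented by EGF receptor ligands, receptors and feedback genes. Of 16 tested, 3 fell and 1 rose, with a median of -0.33; the control arrays alone called 5 lower. EGF itself, the factor also supplied in the medium, read 6.93, 6.64 and 6.92 at 12 h and 4.67, 4.68 and 3.68 at 48 h, a log2 change of -2.49 ± 0.29 (SE, adjusted p = 7.57e-05). DUSP6 and SPRY4, which are induced by ERK signalling and limit it, changed by -1.62 and -1.65. BTC, the ligand betacellulin, went from near background to 5.75, 4.26 and 5.26 and was the 1 that rose (adjusted p = 0.00195). EGFR, ERBB2 and ERBB3 did not pass, with log2 changes of -0.06, -0.29 and 0.38.

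Of 22 immediate early genes, 4 rose and 5 fell, beside 24.6% higher and 20.9% lower among all genes. Their median was 0.29, which was -0.14 without replicate 2 at 48 h. FOSL1, a partner of JUN induced by ERK, read 9.66, 8.96 and 9.25 at 12 h and 7.20, 7.25 and 7.14 at 48 h, a log2 change of -2.09 ± 0.18 (SE, adjusted p = 1.34e-05). FOSL2 changed by -0.94. KLF4, a factor of epithelial differentiation, rose by 1.63 and JUND by 0.96. FOS, JUN and EGR1 did not pass, with log2 changes of 0.70, 0.75 and 0.58. Without replicate 3 at 48 h 7 genes were called higher.

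Targets of YAP and TEAD, factors that are active at low cell density, had 7 of 19 higher and 2 lower, with a median of 0.38. The count higher was 2 without replicate 2 or 3 at 12 h or replicate 2 at 48 h, 3 without replicate 1 at 48 h and 4 without replicate 1 at 12 h. AJUBA, a LIM protein of this pathway, rose by 1.42 (adjusted p = 3.22e-06). NT5E, the ecto-nucleotidase CD73, read 11.46, 11.67 and 12.00 at 12 h and 9.07, 8.02 and 9.11 at 48 h, a log2 change of -2.98 ± 0.42 (SE, adjusted p = 0.000266). PTPN14 changed by -0.94, and CCN2, AXL and F3 did not pass, with log2 changes of 0.19, 0.02 and -0.56. Members of this list moved in both directions, as did all genes, of which 24.6% were higher and 20.9% lower.

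Of 18 genes of the TGF-beta pathway, 6 fell and 2 rose, with a median of -0.17. ID1, a target of BMP signals, read 12.86, 12.71 and 13.02 at 12 h and 10.94, 11.44 and 10.55 at 48 h, a log2 change of -1.89 ± 0.28 (SE, adjusted p = 0.000354). INHBA, the activin A subunit, changed by -1.40 (adjusted p = 0.00456), opposite in sign to INHBE, the other activin subunit described above. The receptor TGFBR2 changed by -0.84 and the signal carrier SMAD3 by -1.20. The count higher was 0 without replicate 3 at 12 h and 1 without replicate 1 at 12 h or any one of the 48 h arrays.

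Extracellular matrix genes and matrix enzymes had 3 of 24 higher and 6 lower, with a median of -0.16. Among all genes, 24.6% were higher and 20.9% lower. Apart from PLAT, the changes of the named members were within about 1 log2 unit. LAMB1, a laminin chain of the basement membrane, rose by 0.73 (adjusted p = 0.000114) and LOX, which crosslinks collagen, by 1.19. COL6A1 and COL6A2, chains of collagen VI, changed by -0.52 and -0.70, and the protease inhibitor TIMP1 by -0.45. COL1A1, COL4A1 and FN1 did not pass, with log2 changes of 0.15, -0.20 and 0.07.

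Of 11 mesenchymal transition factors, 5 fell and 3 rose, with a median of -0.39. S100A4 changed by -1.55, TWIST1 by -1.03, TAGLN by -0.85 and VIM, the vimentin gene, by -0.34, while ACTA2, smooth muscle actin, rose by 1.68 and the repressor SNAI2 by 1.44. VIM stayed among the brightest genes, at 15.01 ± 0.11 (SD, n = 3) at 48 h. Epithelial junction genes had 6 of 21 higher and 3 lower, with a median of 0.25, beside 24.6% higher and 20.9% lower among all genes. The plakophilin PKP2 rose by 1.63 (adjusted p = 0.000215), the tricellular protein MARVELD2 by 0.74 and TJP3 by 0.99. CLDN2, the claudin that forms cation pores in proximal tubule, read 11.11, 10.87 and 10.29 at 12 h and 8.71, 8.91 and 7.08 at 48 h, a log2 change of -2.52 ± 0.56 (SE, adjusted p = 0.00419).

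Of 6 keratins tested, 3 were lower and 1 was higher, with a median of -0.40; the list holds keratins of simple epithelium, such as KRT18 and KRT19, beside others such as KRT15 and KRT80. KRT19 read 11.38, 11.46 and 11.23 at 12 h and 9.98, 10.09 and 9.85 at 48 h, a log2 change of -1.38 ± 0.36 (SE, adjusted p = 0.00913). KRT18 changed by -0.35 and KRT80 rose by 0.78. Of 14 markers of tubular injury and repair, 6 fell and 2 rose, with a median of -0.29. SOX9, a factor of tubule regeneration, read 10.87, 10.57 and 10.57 at 12 h and 7.51, 7.17 and 7.18 at 48 h, a log2 change of -3.38 ± 0.17 (SE, adjusted p = 6.51e-07). HAVCR1, which encodes the injury marker KIM-1, changed by -0.90 (adjusted p = 0.00601). The count higher was 0 without any single control array but replicate 3 at 48 h, and LCN2, VCAM1, SPP1 and CLU did not pass, with log2 changes of 1.24, -1.31, -0.12 and 0.01.

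The labelled cell type was checked against its markers. Of 32 proximal tubule markers with a probe set, 13 lay above a log2 of 4 on all 6 control arrays and 19 on none. Those on all 6 include CDH6, DPP4, PDZK1 and PAX8. Median control levels of these 13 ran from 5.7 for SLC3A1 to 13.4 for CDH6 in log2. Those on none include LRP2, CUBN, AQP1 and SLC34A1. Of all probe sets, 42.3% to 42.7% exceeded 4 on a control array. That share counts probe sets on single arrays, so the count of 13 markers cannot be measured against it. By gene, 11154 of 19775 passed the looser filter of 4 on at least 3 of 12 arrays. Whether the list stands apart from other genes was not tested. Of 9 keratins, 6 lay above it on all 6 arrays. Among other kidney cells, 0 of 8 leukocyte markers were above 4 on any control array, and the list mean, without the filter, was 2.40 to 2.43 at 12 h and 2.39 to 2.46 at 48 h. Endothelial markers were above it on all 6 arrays for 1 of 10, with list means of 3.36 to 3.38 and 3.34 to 3.39. Fibroblast and mesangial markers were above it on all 6 for 4 of 12, with list means of 4.40 to 4.45 at 12 h and 4.49 to 4.73 at 48 h, and podocyte markers for 5 of 8, with 6.66 to 6.72 and 6.46 to 6.74. Markers of the loop, distal tubule and collecting duct were above it on all 6 for 5 of 14 and on none for 9, with 3.63 to 3.68 and 3.64 to 3.66.

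Of 13 differentiation markers of the proximal tubule tested, 1 rose and 1 fell, with a median of -0.11, which was 0.02 without replicate 3 at 12 h and 0.17 without replicate 3 at 48 h; with the replicate block in the control arrays 2 rose and 3 fell. The counts were 2 higher without replicate 1 or 3 at 48 h, and 2 lower without replicate 3 at 12 h or replicate 2 or 3 at 48 h. MIOX, the inositol oxygenase specific to renal tubules, read 9.73, 9.84 and 9.44 at 12 h and 11.31, 11.28 and 11.21 at 48 h, a log2 change of 1.59 ± 0.13 (SE, adjusted p = 1.02e-05). CDH6, a cadherin of proximal tubule, changed by -0.59 (adjusted p = 0.000583), and its 5 other probe sets by -2.77 to -0.70.

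The change over the same 36 h in cultures given CsA was compared with that in control cultures. Of the 5077 genes called in control cultures, 4907 (96.7%) had the same sign of change in CsA cultures, which share no array with them, against 82.0% of all genes. Across the 11154 genes the 2 log2 changes correlated with a Pearson r of 0.877, given as a description, since genes are not independent and both rest on 12 h and 48 h arrays of the same study. The difference between the 2 changes passed the threshold for 125 genes (1.12%), of which 100 were lower with CsA and 25 higher; 76 of the 125 were also called in control cultures. Technical measures of the CsA arrays at 48 h also vary: replicate 3 had a hybridization control median of 7.60 in log2, against 10.2 to 11.5 on the other 5 CsA arrays, and replicate 1 a poly-A control median of 5.60. Without replicate 3 of CsA at 48 h the count was 442, of which 370 were lower with CsA and 72 higher, and it included all 125. Without the other CsA arrays it was 3, 3 and 0 for replicates 1, 2 and 3 at 12 h, where limma called 1690, 1476 and 1703 genes at an unadjusted p under 0.05, and 14 and 325 for replicates 1 and 2 at 48 h. The count also moved with single control arrays. It was 0 without replicate 1 or 3 of control at 12 h, where limma called 1489 and 1563 genes at an unadjusted p under 0.05, 8 without replicate 2 at 12 h, 15 and 28 without replicates 1 and 2 at 48 h, and 329 without replicate 3 at 48 h.

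The 5 markers had the same sign in both conditions. DDIT3 changed by 4.84 in control and 4.42 with CsA, INHBE by 5.06 and 3.69, ERO1B by 4.72 and 5.04, NEIL3 by -5.70 and -6.20 and ORC1 by -4.57 and -5.45. Of the 220 named genes that passed in control cultures, 212 had the same sign with CsA, and for 7 the difference itself passed. The mitosis list had a median of -2.90 with CsA beside -2.48 in control, the DNA replication list -2.28 beside -1.55, and the ATF4 and CHOP list 1.87 beside 1.97. Replicate 3 of CsA at 48 h ran apart in the first of these lists: the mitosis means of the CsA arrays at 48 h were 8.05, 7.52 and 9.93, so that this array lay above every control array at 48 h. Its replication mean of 8.99 also lay above the 8.41 and 8.36 of the other CsA arrays and within the range of the controls. Without it the CsA medians were -3.48 for mitosis, -2.36 for replication and 1.84 for ATF4 and CHOP. These list differences were not tested.

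**Figure D5:**
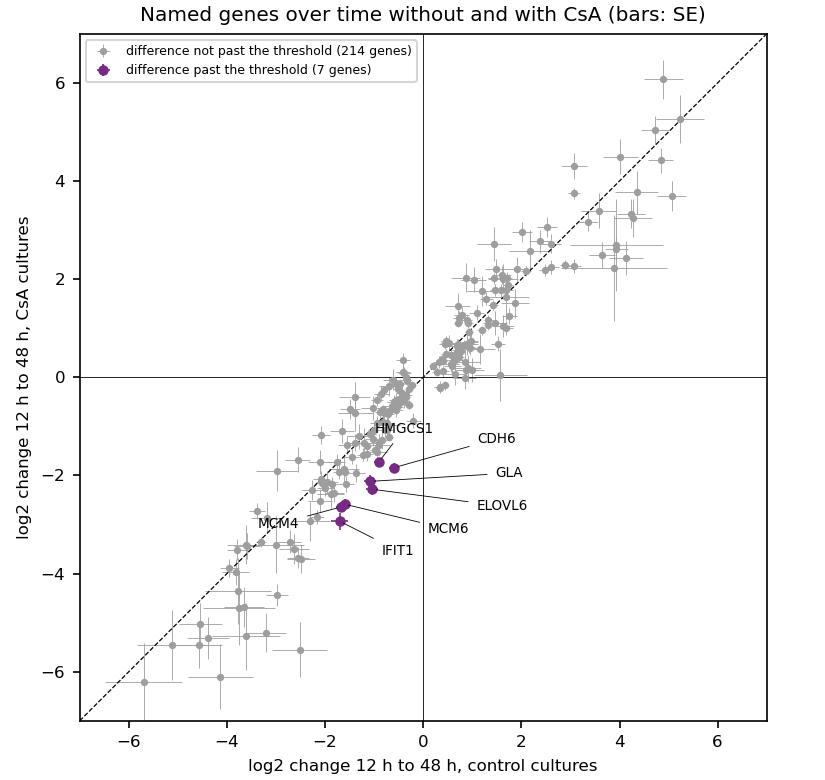
Log2 change from 12 h to 48 h in control cultures (horizontal) and CsA cultures (vertical) for the 221 named genes, with bars of 1 SE and a dashed line of equality. Most genes lie along the line in both conditions; the 7 purple genes, MCM4, MCM6, HMGCS1, ELOVL6, GLA, IFIT1 and CDH6, lie below it, with a difference past the threshold.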

How the data were processed

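Values are log2 probe set summaries deposited by the authors, made with GCRMA per the submitters' processing notes; its version and settings are not given in the sources used. The method commonly models background by probe sequence and equalizes the arrays' distributions, which leaves dim probe sets bunched near a floor and their folds uncertain. No further normalization was applied.

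Of 54675 probe sets, 41097 had 1 gene symbol, 1801 several and 11777 none in the platform annotation; 41043 of the first were named through the RefSeq gene identifier. Those with 1 symbol and a log2 above 4 on at least 3 of 12 arrays numbered 20625, and the one with the highest mean stood for its gene. None of the 66 pairs of arrays held identical values. Limma 3.58.1 (R 4.3.3) fitted 4 groups on all 12 arrays (8 residual degrees of freedom) and, separately, the 6 control arrays; tests were two-sided with Benjamini-Hochberg adjustment over 11154 genes and a threshold of 0.05. Neither fit pairs the arrays, so the SEs and adjusted p-values given above ignore the replicate numbers of the labels. Deviations from the group means correlated at 0.278 to 0.325 for control arrays of the same number. A paired fit, with the replicate number as a block, was therefore run as an alternative. Tested on simulated data, both fits recovered most changes, with more false calls than the nominal share. False calls made up 14.2% of the calls in the fit of all arrays and 9.38% in the control arrays alone, at the threshold of 0.05. The simulations changed 200 of 11154 genes, far fewer than the 5077 called in the data, so these shares may not carry over.

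Named genes are the 15 largest changes in each direction that passed in both fits with separated arrays and a mean of at least 6 in the higher group, 14 genes named outright, and up to 4 members per list and direction with the smallest p. Other genes, including those given as not passing, were chosen after their values were seen. The comparison, the 42 lists and the genes were chosen with earlier results of these data known, so no list is independent evidence. Of the 220 named genes that passed, 215 passed in the control arrays alone. Alternatives covered filters, scaling, probe set choice, priors, array weights, the block and leaving out each array.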

Additional observations from a re-analysis of the deposited data

Results flagged for a closer look

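Among the named genes, 7 were picked out because the test of the difference between the change with CsA and the change in control cultures passed the threshold. In log2 units, with the control change subtracted from the CsA change, the difference was -0.97 for MCM4 and -0.983 for MCM6, both helicase subunits that fell in each condition. It was -0.823 for HMGCS1 and -1.244 for ELOVL6, enzymes of sterol and fatty acid synthesis. It was -1.045 for the lysosomal enzyme GLA, -1.231 for the interferon-inducible IFIT1 and -1.248 for the cadherin CDH6. Each of the 7 fell in both conditions, and the fall was larger with CsA. No gene in the whole set passed without replicate 1 or 3 of control at 12 h or without replicate 3 of CsA at 12 h, so each of these differences loses its call when one of those arrays is left out. Without replicate 3 of CsA at 48 h, which stands apart, all 7 passed.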

How the results depend on the processing

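Counts of genes higher and lower over time stayed within 1.5 times under every alternative but one: with probe sets tested singly, 4709 were higher and 4093 lower among 23671. Leaving out one control array gave 2216 to 2513 higher and 1926 to 2129 lower. The replicate block in the control arrays gave 3019 and 2598, and 4802 of the 5077 called genes kept their call. When each of the 6 control arrays was left out in turn, 3692 of the 5077 kept their call every time. Of the 220 named genes that passed, 187 kept their call in all 24 alternatives, and none reversed; EIF2AK4, ATG16L1, MYC, NPM1, CCN1, IL11 and SOX4 lost it under the paired fit.

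The count of genes whose change differed with CsA, 125, moved most: 396 with the replicate block on all arrays, 1199 with array weights, 192 with trend and robust priors, 49 without the filter, 0 to 329 when one control array was left out, and 0 to 442 when one CsA array was. Leaving out a CsA array was added after the data were seen. The cause was not tested. Several list medians moved by over 1.5 times or changed sign when single control arrays were left out. Among them were the TGF-beta, immediate early, fatty acid, ribosome biogenesis and proximal tubule lists. The ion transporter, NF-kB cytokine, interferon, NRF2 and CDK inhibitor lists were also among them. With 3 arrays per time, small changes and values near the floor of log2 4 are measured least well, and 379 of 4441 other probe sets of called genes had the opposite sign, 37 of them past the threshold. The arrays arrive on a common distribution, so a shift shared by most genes could not be seen.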

Other observations

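Regulators of apoptosis in the BCL2 family had 8 of 14 genes higher and 2 lower, with a median log2 change of 0.46; the count lower was 1 without any single control array. HRK, a BH3-only protein that binds BCL2 and BCL-XL, read 4.98, 4.41 and 4.42 at 12 h and 7.99, 7.85 and 7.20 at 48 h, a log2 change of 3.08 ± 0.26 (SE, adjusted p = 1.12e-05). BCL2L11, another such protein, rose by 0.87 and the survival gene BCL2L2 by 0.71, while BID changed by -0.64. BCL2 rose by 1.16 on one probe set, while the other changed by 0.08. Of 20 interferon-stimulated genes, 5 rose and 2 fell in the fit of all arrays, where 24.6% of all genes were higher and 20.9% lower. The list was thus close to the first share and below the second. The counts were 8 and 4 without replicate 2 at 48 h, 7 and 3 in the control arrays alone, and 8 and 5 with the replicate block in the control arrays. IRF1 rose by 2.01, MX1 by 1.61 and IFIT2 by 1.47, whereas OAS3 changed by -2.72 and IFIT1 by -1.70.

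Targets of NRF2 had 8 of 19 lower and 1 higher, with a median of -0.22, which was -0.12 without replicate 1 at 12 h. The rise was that of SLC7A11, which ATF4 also induces, and what raised it here was not tested. Without replicate 3 at 48 h and in the control arrays alone, 2 were higher. GCLM, the modifier subunit of the enzyme that starts glutathione synthesis, read 11.91, 11.62 and 11.96 at 12 h and 9.76, 9.55 and 9.98 at 48 h, a log2 change of -2.06 ± 0.14 (SE, adjusted p = 3.57e-06), and NQO1 changed by -1.31. Metallothioneins were lower in 3 of 6 cases, in 5 without replicate 1 at 12 h and in 6 with the replicate block in the control arrays. Ion transporters had 4 of 14 higher and 4 lower, not far from the 24.6% higher and 20.9% lower among all genes. The chloride transporters CLCN7, CLCN3 and CLCN5 rose by 0.92, 0.73 and 0.89, and the potassium channels KCNN4 and KCNJ15 changed by -1.49 and -1.03. Among 15 cytokines and chemokines of the NF-kB response, 1 rose and 1 fell; the count lower was 0 without any one of the 12 h replicates or replicate 2 at 48 h. Among 3046 probe sets with no gene name or several, 524 were higher and 409 lower. Both shares were smaller than among all 23671 probe sets tested singly, of which 4709 were higher and 4093 lower.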
